A study of Mus musculus with 3 samples.

Results

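The outer rim of 3 thymus sections was compared with the inner tissue of the same sections. The rim comprised the bins within 3 bins (81 µm) of the outer edge of the tissue, and the inner tissue comprised the bins more than 10 bins (270 µm) from that edge. Of 55250 tissue bins, 7956 were rim bins, 33027 were inner bins and 14267 lay between the zones. A bin is a square of 27 µm in which the unique molecular identifiers (UMIs, each standing for 1 captured transcript) of all barcoded spots were summed. Bins were kept when they held at least 300 detected genes and at most 30% UMIs of mitochondrially encoded genes and lay in connected groups of at least 200 such bins. Holes inside a group were filled, so only the outside of the tissue counted as an edge. No gene was used to place a bin in a zone beyond these limits. A bin holds several cells, and the bins of a section are not replicates of one another.

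The sections came from 2 *Trp53*-/- mice (KO), named KO1134 and KO1308, and from 1 *Trp53*+/+ mouse (WT), named WT1101. KO1134 and WT1101 were 17 weeks old and KO1308 was 21 weeks old, and all were female C57BL/6 mice perfused with cold PBS before the thymus was frozen. The knockout mice lacked the gene throughout the body, so stroma, fat and thymocytes shared the genotype. Permeabilisation, which releases RNA from the section, ran longer for the KO sections. Since the WT group held 1 section, the genotypes were not tested against each other. In such sums, fewer cells of a type and less RNA per cell cannot be told apart.

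The thymus is a lobed organ wrapped in a capsule of connective tissue, which is covered in places by mesothelium and lies in the fat of the mediastinum. Immature CD4- CD8- double-negative thymocytes move outward to the subcapsular zone, where those that carry the pre-T-cell receptor divide, and the CD4+ CD8+ double-positive cells they give rise to fill the cortex. Cells that survive selection migrate inward to the medulla, which holds the medullary epithelium, B cells and many dendritic cells and is the place from which mature cells leave. Over most of the surface the tissue just under the capsule is cortex.

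The zones differed in depth. The rim summed to 4485604 UMIs in WT1101, 2750701 in KO1134 and 3095568 in KO1308, and the inner tissue to 26909163, 19959359 and 6986130 UMIs. A rim bin held a median of 2146 UMIs in WT1101, above the 1194.5 of an inner bin, whereas in KO1134 (1295 against 2857.5) and KO1308 (542 against 1057) the rim was the shallower zone. The kinds of edge differed as well. The nearest bin outside the tissue still held deposited spots for 52.6% of rim bins in WT1101, 65.5% in KO1134 and 91.5% in KO1308, so that in KO1308 most of the edge was set by the limit of 300 genes and not by the end of the captured spots. The kept tissue was 1 connected group in WT1101 and KO1134 and 3 groups in KO1308. The part of depth and of edge type in the results was not tested, and values with the edge drawn at the outermost deposited spots are given where they differ most.

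**Figure D1:**
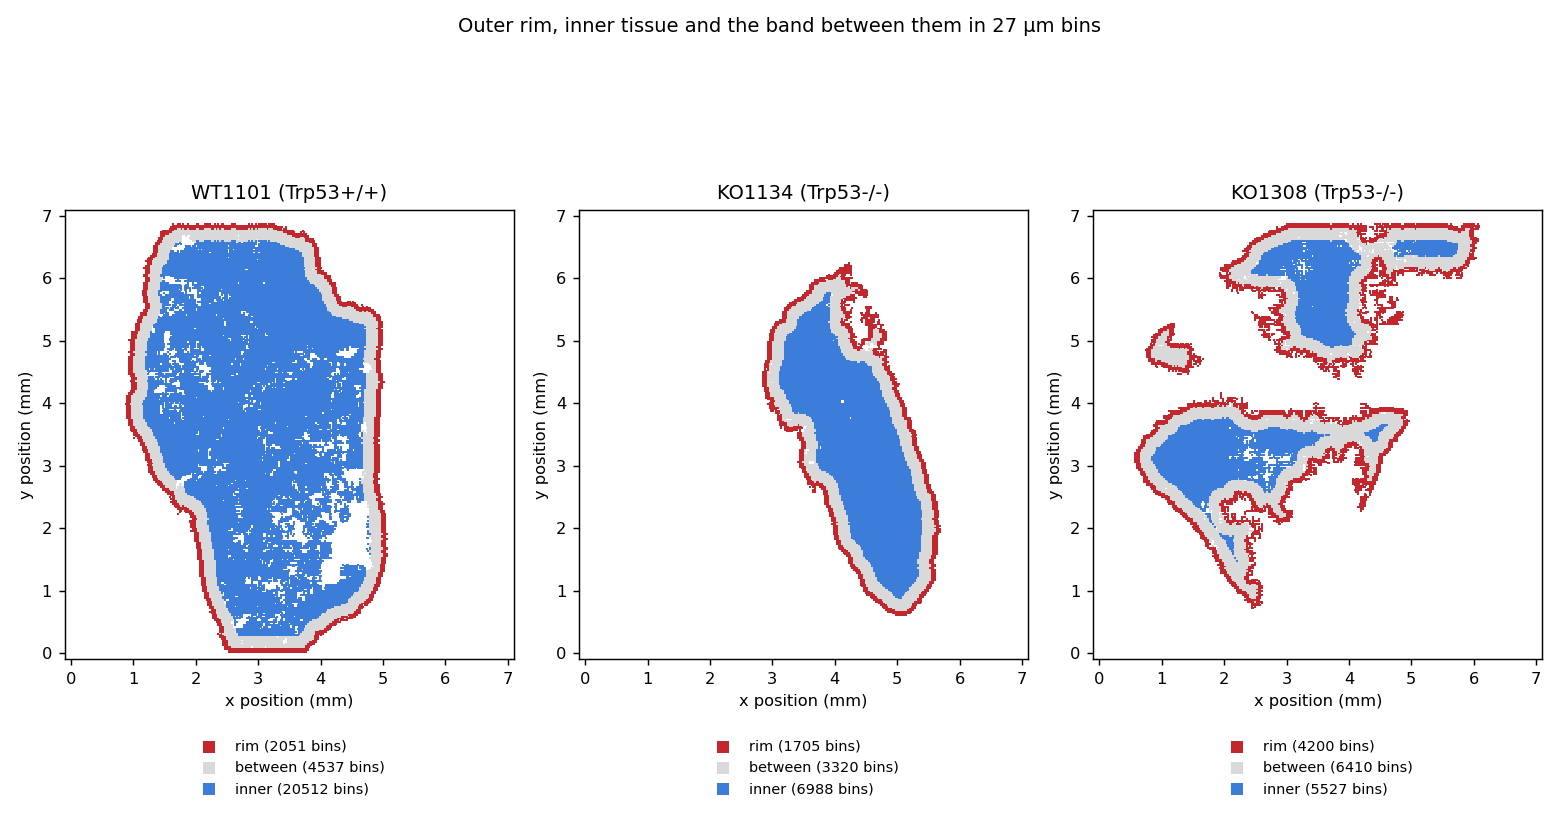
Map of the tissue bins of the 3 sections, with both axes giving position in the section and colours marking the outer rim, the bins between and the inner tissue. The rim takes 7.57% of the tissue bins in WT1101, 14.2% in KO1134 and 26.0% in KO1308, where it runs around 3 separate groups.

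Levels are given as CPM, the UMIs of a gene per 1000000 UMIs of the same zone, and ratios are rim to inner within a section. The interval in brackets after a ratio is a 95% exact conditional binomial interval, which covers counting error only. A single section gives 1 sum per zone and no test. The test across sections was edgeR's quasi-likelihood test on the zone sums with the section as a block, with p-values adjusted over all genes tested, and its log2 fold changes are rim minus inner. Of 16310 genes tested, 306 (1.88%) were higher and 417 (2.56%) were lower in the rim at an adjusted p under 0.05. Of the 722 gene symbols called, 712 had a ratio on the same side of 1 in all 3 sections. The median log2 fold change over all genes tested was -0.01 with the TMM scaling used here. Scaling by total UMIs moved this median to -0.12 and gave 243 higher and 751 lower, so the share of calls that were higher went from 42.3% to 24.4%. Leaving out the section KO1134 left 3 higher and 1 lower, leaving out KO1308 left 101 and 219, and leaving out WT1101 gave 1347 and 1.3e+03 (rounded). Nearly all calls given here were thus lost without KO1134.

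Within WT1101, 122 of 13921 genes with at least 100 UMIs (0.876%) were at least 2-fold higher in the rim with an interval past 1, and 780 (5.6%) were at least 2-fold lower. In KO1134 398 of 13746 genes (2.9%) were higher and 866 (6.3%) were lower, and in KO1308 272 of 11892 (2.29%) were higher and 372 (3.13%) were lower. Over these genes the median ratio was 0.881 in WT1101, 0.921 in KO1134 and 0.946 in KO1308. The shares with a ratio above 1 were 31.6%, 38% and 39.9% in the same order. Among 11625 genes with at least 100 UMIs in every section, 35 passed 2-fold higher and 121 passed 2-fold lower in all 3 sections. A further 152 were higher in both KO sections and not in WT1101, and 45 were higher in WT1101 and in neither KO section. For the lower genes these counts were 58 and 257.

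In WT1101 the rim was marked by connective-tissue transcripts and, in part of its length, by mesothelial transcripts. The 7 mesothelium genes summed to 127 CPM in the rim and 8.62 CPM in the inner tissue, a ratio of 14.7 [12.6 to 17.2], and all 7 were above 1. When the section was split into 4 sectors, the list ratio was above 1 in only 1 of them, at 104, and went down to 0.325 elsewhere. *Upk3b*, which encodes a uroplakin of mesothelial and urothelial surfaces (ENSMUSG00000042985, chr5:136038496-136046487, plus strand, GRCm38), stood at 35.4, 3.27 and 4.2 CPM in the rim and 0.223, 0.251 and 0.859 CPM in the inner tissue for WT1101, KO1134 and KO1308. Its rim level was above its inner level in every section, and by far the most in WT1101, with ratios of 159 [71.4 to 440], 13.1 [3.93 to 49.6] and 4.89 [1.73 to 15.7] (log2 fold change 5.34 ± 0.87 SE, adjusted p = 0.022). These ratios rest on 159, 9 and 13 rim UMIs and on 6, 5 and 6 inner UMIs of *Upk3b*. *Upk3b* was the 1 mesothelium gene of 4 tested that passed. *Msln*, the mesothelial surface protein mesothelin, stood at 35.4, 2.91 and 24.9 CPM in the rim and 2.08, 7.16 and 41.5 CPM in the inner tissue. The rim level was the higher one in WT1101, with a ratio of 17 [12.5 to 23.5], and the lower one in KO1134 and KO1308, with ratios of 0.406 [0.172 to 0.822] and 0.599 [0.46 to 0.773], and its change across sections did not pass (log2 fold change 0.97 ± 0.95 SE, adjusted p = 0.62, and -0.77 without WT1101). *Krt19*, a keratin of simple epithelia and mesothelium, had ratios of 7.48, 0.269 and 0.406 in the same order.

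The fibroblast list gave the rim of WT1101 510.3 CPM against 228 CPM inside, a ratio of 2.24 [2.14 to 2.35], with 8 of its 12 genes past 2-fold. Its collagen and proteoglycan genes were among them, with ratios of 2.51 for *Col1a1*, 2.59 for *Col1a2*, 2.5 for *Col3a1* and 2.8 for decorin (*Dcn*). The list was less uneven in the KO sections, at 1.26 [1.19 to 1.32] in KO1134 and 0.74 [0.694 to 0.788] in KO1308. Decorin had ratios of 0.747 and 0.553 there. By this list the rim of KO1308 did not hold more connective-tissue transcripts than its inner tissue. Over the sections 3 of the 12 genes were higher, none was lower and the median log2 fold change was 0.61. With a rim of 2 bins or a minimum of 500 genes per bin 1 gene was called higher. A rim of 5 bins, or distance counted in steps that include diagonals, gave 2 higher and 1 lower.

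The 3 fibroblast genes called higher are known from the connective-tissue fibroblasts that surround organs and vessels. *Pi16*, a peptidase-inhibitor-domain protein of adventitial fibroblasts (ENSMUSG00000024011, chr17:29317680-29330593, plus strand), stood at 39.2, 45.8 and 22.9 CPM in the rim and 2.45, 6.81 and 3.15 CPM in the inner tissue, and every rim level was above every inner level (log2 fold change 3.35 ± 0.28 SE, adjusted p = 0.0027). *Mfap5*, a microfibril protein, had ratios of 2.27, 2.54 and 1.63 (log2 fold change 1.27 ± 0.22 SE, adjusted p = 0.025). *Clec3b*, which encodes tetranectin, had ratios of 4.45, 2.54 and 1.27 (log2 fold change 1.47 ± 0.33 SE, adjusted p = 0.049). Its call was lost with the edge at the outermost deposited spots (adjusted p = 0.076). *Igfbp6*, an insulin-like growth factor binding protein of fibroblasts and mesothelium, was at 86.5, 31.3 and 12 CPM in the rim and 2.27, 4.91 and 5.44 CPM in the inner tissue, again with every rim level above every inner level (log2 fold change 3.41 ± 0.67 SE, adjusted p = 0.037). *Tnxb*, a tenascin of connective tissue, also rose (log2 fold change 2.16 ± 0.42 SE, adjusted p = 0.035).

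Other genes were high in the rim of WT1101 and less so in the KO sections, a difference that was not tested. *Ackr4*, a scavenging receptor for the chemokines CCL19, CCL21 and CCL25, stood at 14.7 CPM in the rim and 2.27 CPM inside, a ratio of 6.49 [4.51 to 9.35]. Its ratios in KO1134 and KO1308 were 1.34 [0.659 to 2.5] and 1.05 [0.596 to 1.81], and it did not pass across sections (adjusted p = 0.2). *Aldh1a3*, an enzyme of retinoic acid synthesis, had ratios of 5.48, 2.64 and 0.921 (adjusted p = 0.13). *Dmkn*, which encodes dermokine, was at 15.8 and 1.34 CPM in WT1101 and had no UMI in the rim of KO1134. The genes of lymphatic endothelium summed to a ratio of 2.02 [1.55 to 2.61] in WT1101, 0.391 [0.302 to 0.499] in KO1134 and 0.593 [0.435 to 0.797] in KO1308, from levels of at most 63.2 CPM in any zone. In WT1101 the rim held 81 UMIs of the list, 3 of its 5 genes were above 1 and only 1 held at least 100 UMIs. Its sectors ran from 1.05 to 7.62 there, and 0 of 2 genes tested passed across sections.

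Double-negative thymocyte genes were slightly higher in the rim of WT1101 and KO1134. The 9 genes gave ratios of 1.28 [1.2 to 1.36] in WT1101, 1.27 [1.21 to 1.33] in KO1134 and 0.962 [0.895 to 1.03] in KO1308, and none of the 9 passed in either direction by edgeR (median log2 fold change 0.23). At an unadjusted p under 0.05, 4 of the 9 were higher and 0 lower, and DESeq2 called 0. *Kit* and *Cpa3* of this list are also the only tested members of the mast cell list. In KO1134 the mast cell list held 1042 rim and 5709 inner UMIs, against 2229 and 12722 for the double-negative list. The part of mast cells in the double-negative sum was not tested. The WT1101 rim was higher by a factor of 1.24 to 1.31 in each of 4 sectors of the section, made by splitting the tissue at the median position on each axis. The sectors ran from 0.823 to 1.37 in KO1134 and from 0.746 to 1.39 in KO1308, so the KO sections were uneven. *Il2ra*, the interleukin 2 receptor alpha chain that marks the later double-negative stages, stood at 53.7, 134 and 57.8 CPM in the rim and 26.6, 112 and 57.3 CPM in the inner tissue. Its ratio was 2.02 [1.74 to 2.34] in WT1101, 1.2 [1.07 to 1.34] in KO1134 and 1.01 [0.842 to 1.21] in KO1308 (adjusted p = 0.16). *Ptcra*, the pre-T-cell receptor alpha chain, was at 31.9, 4.0 and 6.78 CPM in the rim and 12, 2.3 and 5.01 CPM in the inner tissue. Its ratio was 2.66 [2.17 to 3.25] in WT1101, 1.74 [0.81 to 3.4] in KO1134 and 1.35 [0.749 to 2.39] in KO1308, with few UMIs in both KO sections (log2 fold change 1.13 ± 0.27 SE, adjusted p = 0.061). Both genes passed 2-fold in the WT section and neither passed across the sections. *Kit*, the receptor of the earliest stage, stood at 2.9 CPM in the WT1101 rim and 5.31 CPM inside.

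Genes of dividing cells were slightly higher in the rim of every section. The 10 cell cycle genes gave ratios of 1.34 [1.31 to 1.36] in WT1101, 1.13 [1.09 to 1.17] in KO1134 and 1.26 [1.22 to 1.3] in KO1308, with 10 of 10 genes above 1 in WT1101. Of the 10, 3 rose and none fell with TMM scaling (median log2 fold change 0.41), whereas DESeq2 gave 4 calls, and scaling by total UMIs, a rim of 2 bins, inner tissue starting past 3 bins or a minimum of 500 genes per bin each gave 0. *Birc5*, which encodes the mitotic protein survivin, stood at 347, 110.2 and 241 CPM in the rim and 254, 80.9 and 164 CPM in the inner tissue, and its zones overlapped between sections although each rim was above its own inner tissue (log2 fold change 0.60 ± 0.12 SE, adjusted p = 0.038). *Cdk1*, the kinase that drives entry into mitosis, had a log2 fold change of 0.53 ± 0.12 (adjusted p = 0.047). *Tyms*, which makes thymidylate for DNA synthesis, had 0.57 ± 0.12 (adjusted p = 0.044). *Mki67* had ratios of 1.22, 1.18 and 1.18 and did not pass (adjusted p = 0.17). By sector of the section, the list ran from 1.07 to 1.56 in WT1101, from 0.725 to 1.28 in KO1134 and from 0.828 to 1.74 in KO1308.

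The double-positive list, which stands for the cortex, gave 0.91 [0.898 to 0.922] in WT1101, 1.05 [1.01 to 1.1] in KO1134 and 1.35 [1.32 to 1.39] in KO1308, and none of its 12 genes passed in either direction by edgeR or DESeq2 (3 were higher at an unadjusted p under 0.05). As a check of the labelled tissue, the list summed in the inner tissue to 6194 CPM in WT1101, 967 CPM in KO1134 and 2114 CPM in KO1308. Genes of cortical thymocytes were thus present inside all sections, at the lowest sum in KO1134. In KO1134 6 of the 12 genes were above 1. The coreceptors *Cd4*, *Cd8a* and *Cd8b1* were lower in the rim of KO1134, with ratios of 0.379, 0.338 and 0.254, whereas *Dntt*, which encodes terminal transferase, was at 493 CPM in the rim and 317 CPM inside. In KO1308 the same 3 coreceptor genes had ratios of 1.43, 1.26 and 1.34. The cortical epithelium list gave 1.2, 1.1 and 0.909 in the order WT1101, KO1134 and KO1308, with 0 of 10 genes called by edgeR, 3 higher at an unadjusted p under 0.05 and 1 called higher by DESeq2. Its member with the smallest adjusted p was *Prss16*, the thymus-specific serine protease, with ratios of 1.43, 1.56 and 1.19 (adjusted p = 0.079).

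The niche ligands, which feed or attract thymocytes, did not move together. *Cxcl12*, a chemokine of cortical stroma that attracts double-negative cells, had ratios of 1.78, 1.14 and 1.05 (adjusted p = 0.17). *Ccl25*, the cortical ligand of CCR9, had 1.28, 1.17 and 0.914 (adjusted p = 0.43). The Notch ligand *Dll4* had 1.59, 1.12 and 0.931 (adjusted p = 0.4). The 3 of 11 members that fell were *Ccl19*, *Ccl21a* and *Cxcl13*, which are chemokines of the medulla and of lymphoid stroma. The call of *Cxcl13* was lost within the thymus area (adjusted p = 0.64), and its log2 fold change turned to 1.03 with bins of 50 µm. The sum over the list was 1067 CPM in the rim and 949 CPM inside in WT1101, a ratio of 1.12 [1.09 to 1.16], and the ratios of the KO sections were 0.671 and 0.669.

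**Figure D2:**
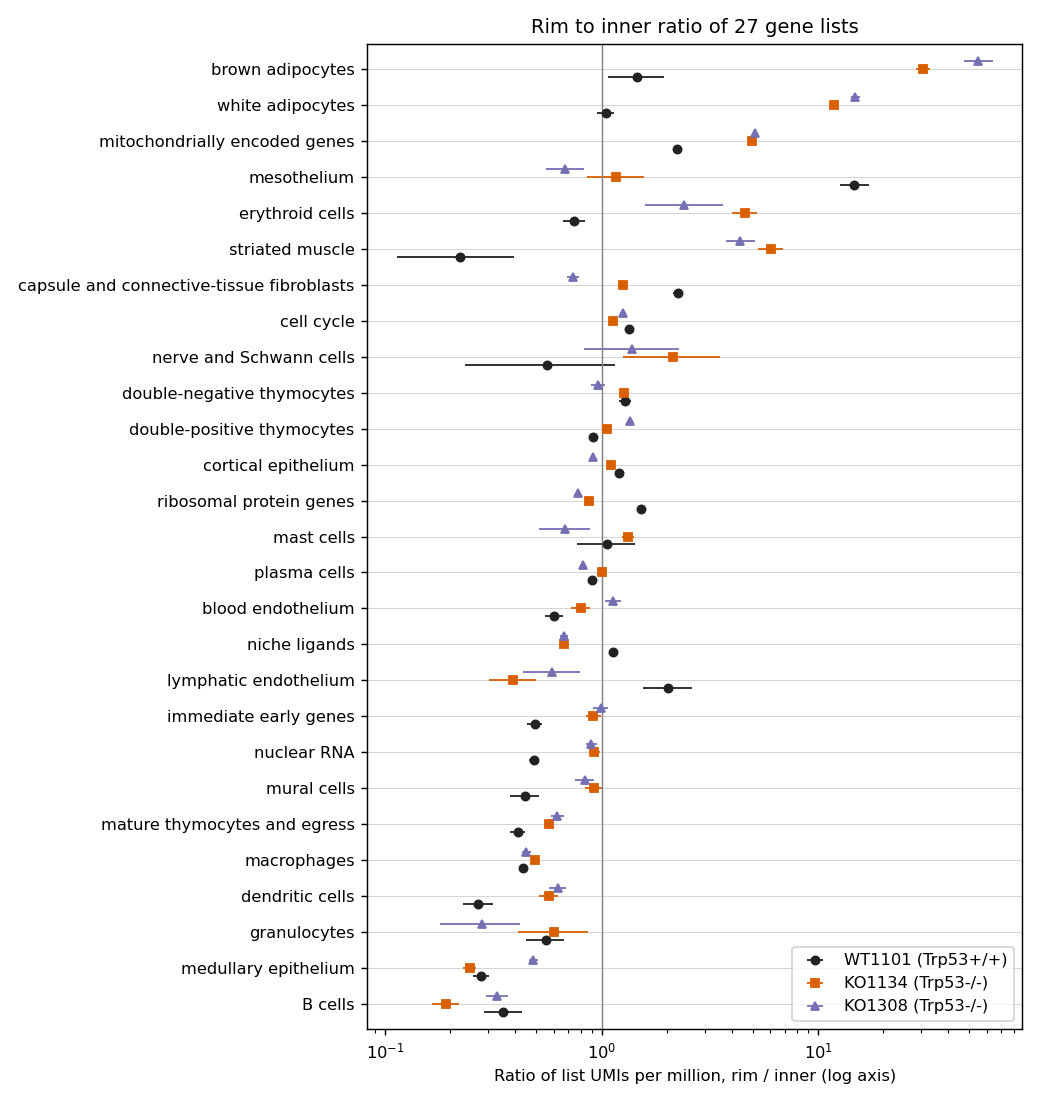
Ratio of rim to inner level for each gene list in the 3 sections, on a log axis, with 95% intervals that cover counting error only. Mitochondrially encoded genes lie right of 1 and medullary epithelium, B cells, macrophages and dendritic cells lie left of 1 in every section, whereas the adipocyte lists lie far right in the KO sections and at 1.04 and 1.45 in WT1101.

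Medullary transcripts were lower in the rim of all sections. The 9 medullary epithelium genes gave 0.278 [0.254 to 0.303] in WT1101, 0.245 [0.228 to 0.264] in KO1134 and 0.482 [0.459 to 0.506] in KO1308, and the rim was below the inner tissue in every sector of every section. Of the 9 genes 4 fell (1 with a minimum of 500 genes per bin) and none rose, with a median log2 fold change of -1.18. *Ccl21a*, the chemokine that draws positively selected thymocytes into the medulla (chr4:42772860-42773993, minus strand), stood at 8.47, 104 and 173 CPM in the rim and 144, 699 and 544 CPM in the inner tissue. Every rim was far below its own inner tissue, and the rims of the KO sections lay on either side of the inner level of WT1101 (log2 fold change -2.58 ± 0.37 SE, adjusted p = 0.014). The keratins *Krt14* (log2 fold change -1.28 ± 0.14 SE, adjusted p = 0.0059) and *Krt17* (log2 fold change -1.0 ± 0.13 SE, adjusted p = 0.011) and the receptor *Tnfrsf11a* (log2 fold change -1.65 ± 0.34 SE, adjusted p = 0.042), which carries the RANK signal that matures these cells, fell too.

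Reads of *Ccl21a* can be shared with copies of the gene. Of the 25-base words in the transcripts of the predicted genes *Gm13304* and *Gm21541*, 85.9% and 83.6% also occur in *Ccl21a*, and these genes fell by a similar amount (-2.45 and -2.42 on the log2 scale). The gene *4930578G10Rik* (chr4:42735545-42846248, plus strand) spans *Ccl21a* on the opposite strand and had a log2 fold change of -2.53. Whether the counting used strand is not given in the sources used here, so these 4 genes are not independent and their separate levels are uncertain.

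*Aire* and *Fezf2*, the regulators that let medullary epithelium display tissue-restricted proteins, were graded between sections. *Aire* stood at 1.11, 9.09 and 39.4 CPM in the rim and 13.8, 25.7 and 46.2 CPM in the inner tissue, with the zones far apart in WT1101 and close in KO1308. Its ratio was 0.0808 [0.0261 to 0.19] in WT1101 and 0.852 [0.686 to 1.05] in KO1308, and it did not pass (adjusted p = 0.18). *Fezf2* had ratios of 0.0351, 0.247 and 0.462 (adjusted p = 0.058). Among the genes lowest in the WT1101 rim were several with no rim UMI. *Skint7* was at 3.94 CPM inside, *Dsg1a* at 4.31 CPM, *Cldn7* at 3.94 CPM and *Ccl12* at 8.66 CPM. Against the 3 UMIs that a count of 0 allows in the rim, they were at least 5.89, 6.45, 5.89 and 12.9-fold lower. *Skint7* is a member of the Skint family, *Dsg1a* is known from skin, *Cldn7* is a claudin of epithelia and *Ccl12* is a monocyte chemokine. *Hdc*, the histamine-forming enzyme, and *Calcb*, a calcitonin-related peptide, each had 1 UMI in that rim against 7.58 and 6.65 CPM inside, which gives ratios of 0.0294 [0.000741 to 0.166] and 0.0335 [0.000844 to 0.189]. Of these 6 genes, *Calcb* passed across sections (log2 fold change -2.04 ± 0.40 SE, adjusted p = 0.035).

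B cell genes were lower in the rim of every section. The 7 B cell genes gave ratios of 0.352, 0.19 and 0.329, and 6 fell while none rose (median log2 fold change -2.06). The exception was *Pax5*, at 0 UMIs in the WT1101 rim (adjusted p = 0.054). *Cd79a*, the signalling chain of the B cell receptor, stood at 2.9, 17.5 and 23.9 CPM in the rim and 20.3, 145 and 99.5 CPM in the inner tissue (log2 fold change -2.48 ± 0.20 SE, adjusted p = 0.0027). *Fcmr*, the receptor for IgM, stood at 1.11, 8.36 and 3.88 CPM in the rim and 7.02, 50 and 20.3 CPM in the inner tissue (log2 fold change -2.42 ± 0.21 SE, adjusted p = 0.0027). Its ratio was nearly the same in the 3 sections, at 0.159, 0.167 and 0.191. With bins limited to the thymus area the list ratios were 0.379, 0.245 and 0.538 and 3 of 7 genes fell, and with bins of 50 µm 0 of 7 did and the ratio of KO1308 was 1.07. Plasma cell genes did not share this pattern, with ratios of 0.904, 1.0 and 0.824, although *Sdc1*, a surface proteoglycan that epithelia also carry, fell (log2 fold change -0.82 ± 0.14 SE, adjusted p = 0.026).

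Among 9 macrophage genes 4 fell and none rose (list ratios 0.435, 0.493 and 0.449), and with a minimum of 500 genes per bin 0 of 9 were called. *Lyz2*, the lysozyme of macrophages and granulocytes, stood at 84.5, 331 and 173 CPM in the rim and 398, 1180.0 and 680.1 CPM in the inner tissue (log2 fold change -1.90 ± 0.16 SE, adjusted p = 0.0027). Within each section the rim held about the same fraction of the inner level, at 0.212, 0.28 and 0.255. The 3 complement genes *C1qa*, *C1qb* and *C1qc* of tissue macrophages fell by less, at -0.59, -0.74 and -0.68 on the log2 scale. *Mrc1* and *Cd163*, receptors of perivascular and capsular macrophages, had ratios of 0.774, 1.32 and 0.913 and 1.59, 1.63 and 0.645 and did not pass. Of 8 dendritic cell genes 2 fell (0 with the inner tissue starting past 3 bins), which were *Itgax* (log2 fold change -1.13 ± 0.20 SE, adjusted p = 0.028) and *Fscn1* (log2 fold change -1.73 ± 0.32 SE, adjusted p = 0.031), the latter an actin-bundling protein of activated dendritic cells.

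Genes of mature thymocytes were lower in the rim as well. The list ratios were 0.409, 0.571 and 0.625, and 4 of 8 genes fell (1 of 8 with a minimum of 500 genes per bin). In KO1308 the highest sector lay above 1 for this list (1.33), for B cells (1.23), dendritic cells (1.31) and macrophages (1.06), whereas all other sectors of the 3 sections lay below 1. *Ccr7*, the receptor for CCL19 and CCL21 that mature thymocytes acquire, stood at 5.8, 24.7 and 24.6 CPM in the rim and 58, 111 and 79.9 CPM in the inner tissue, with the largest gap in WT1101 (log2 fold change -2.20 ± 0.25 SE, adjusted p = 0.0075). *S1pr1*, which lets cells leave along the sphingosine phosphate gradient, had a log2 fold change of -1.37 ± 0.20 (adjusted p = 0.015). *Il7r*, re-expressed after positive selection, had -1.05 ± 0.19 (adjusted p = 0.027), and *Itgb7* had -1.13 ± 0.15 (adjusted p = 0.01). *Dapl1* was one of the strongest single genes of the inner tissue, at 1.11, 14.9 and 10.7 CPM in the rim and 14.6, 123 and 36.6 CPM in the inner tissue (log2 fold change -2.56 ± 0.28 SE, adjusted p = 0.006), and *Slfn1*, a Schlafen gene of quiescent T cells, fell by a similar amount (log2 fold change -2.34 ± 0.28 SE, adjusted p = 0.0091).

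**Figure D3:**
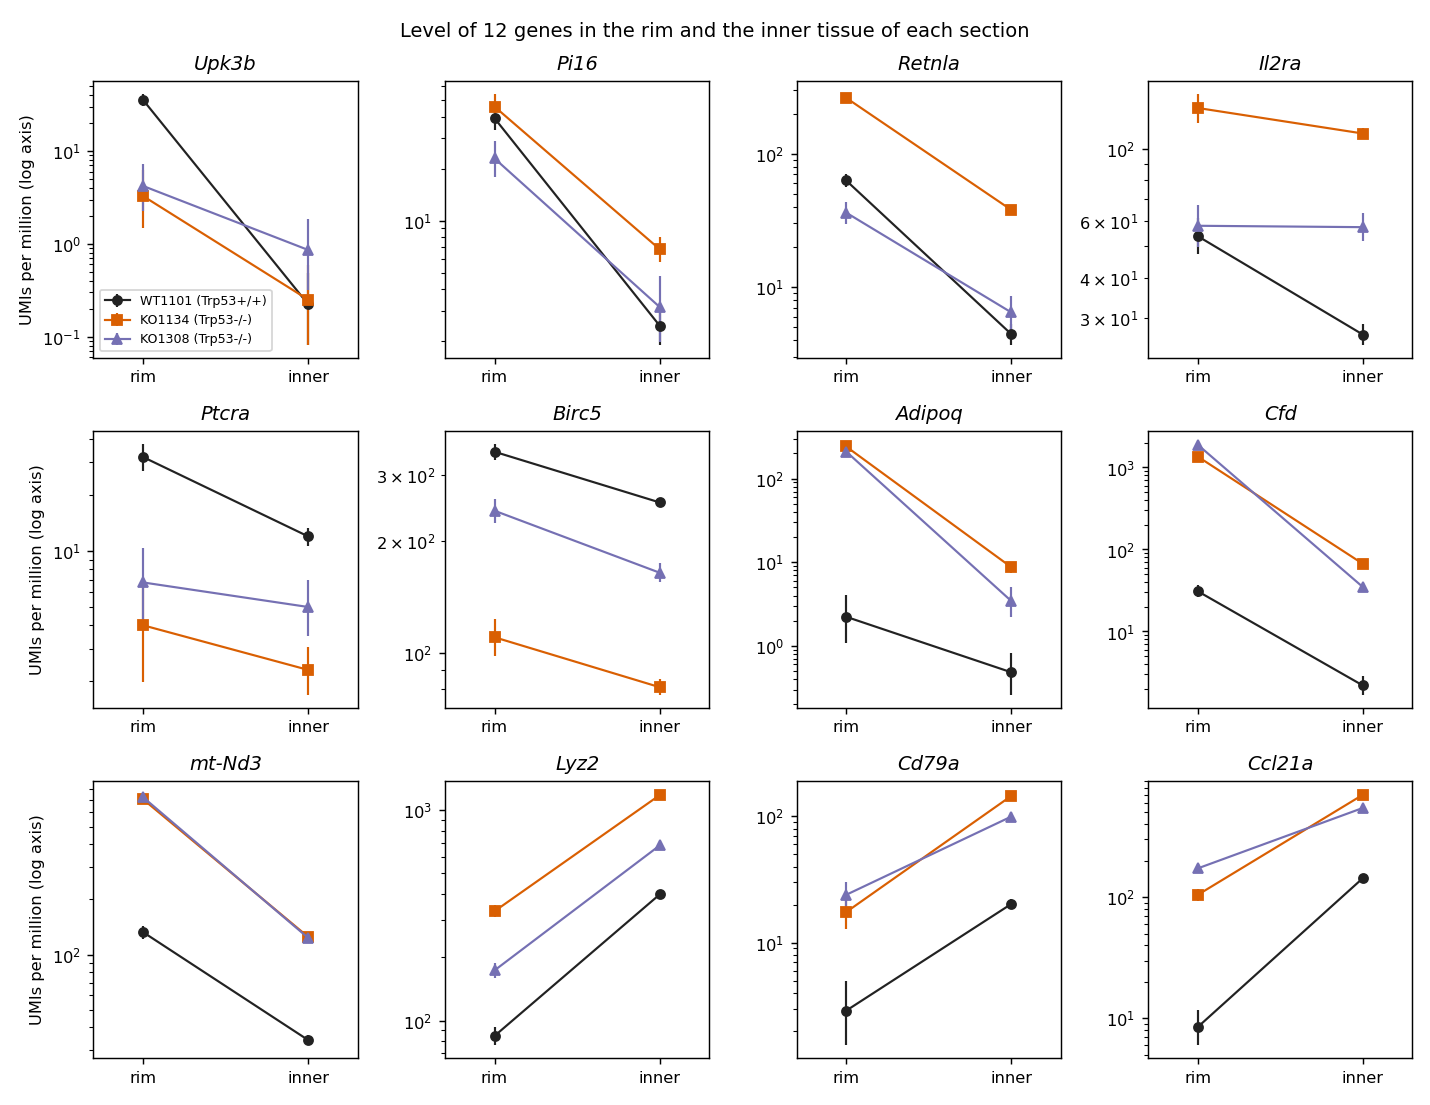
Level of selected genes in the rim and in the inner tissue of each section, in CPM on a log axis, with exact 95% intervals for counting error. *Pi16*, *Cfd* and *Retnla* lie higher in the rim in every section and *Cd79a*, *Ccl21a* and *Lyz2* lie lower, and *Adipoq* is far lower in WT1101 than in the KO sections in both zones.

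In both KO sections the rim was rich in transcripts of fat. The white adipocyte genes summed to 3947 CPM in the rim and 334 CPM inside in KO1134, a ratio of 11.8 [11.5 to 12.2], and to 3839 and 259 CPM in KO1308, a ratio of 14.8 [14.1 to 15.6]. In WT1101 they stood at 138 and 132 CPM, a ratio of 1.04 [0.956 to 1.14]. Brown adipocyte genes gave 30.4 [28.3 to 32.8] in KO1134, 54.8 [47.1 to 64] in KO1308 and 1.45 [1.07 to 1.93] in WT1101, from only 13.2 CPM in the WT1101 rim. These differences between the WT and KO sections were not tested. Of the white adipocyte genes 4 of 6 rose, and of the brown adipocyte genes 4 of 4 rose, with median log2 fold changes of 4.75 and 5.01. In WT1101 6 of 7 white and 2 of 5 brown adipocyte genes had a ratio above 1. Only 2 white and 1 brown gene held at least 100 UMIs there, and 0 passed 2-fold, so these calls draw mostly on the KO sections. Within the thymus area, defined by 6 thymus genes in the neighbourhood of a bin, 5 of 6 white and 2 of 4 brown adipocyte genes passed, and *Ucp1* (adjusted p = 0.062) and *Cidea* (adjusted p = 0.11) did not.

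*Adipoq*, the adipocyte hormone adiponectin, stood at 2.23, 242 and 211 CPM in the rim and 0.483, 8.72 and 3.44 CPM in the inner tissue (log2 fold change 5.0 ± 0.42 SE, adjusted p = 0.0027). Every rim was above its own inner tissue, and the WT1101 rim lay below the inner level of both KO sections. *Ucp1*, the uncoupling protein that makes heat in brown fat, had no UMI in the WT1101 rim and stood at 199.9 and 340.5 CPM in the KO rims, against 4.21 and 3.15 CPM inside (log2 fold change 6.08 ± 0.34 SE, adjusted p = 0.00099). The call of *Ucp1* rests on the KO sections, since WT1101 held 1 UMI of the gene in both zones together. *Cidec* and *Plin1*, which coat lipid droplets, had log2 fold changes of 5.06 ± 0.40 (adjusted p = 0.0024) and 4.61 ± 0.42 (adjusted p = 0.0032). *Fabp4*, a fatty acid carrier that endothelium and macrophages also make, had ratios of 1.04, 12.3 and 15.5 and *Lpl*, lipoprotein lipase, 0.818, 6.67 and 6.47, and neither passed (adjusted p = 0.08 and 0.091).

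Called genes were ranked by their rise among those with a ratio above 1 and at least 100 UMIs in every section. Some of the top 15 act in lipid metabolism, a theme that was not tested. *Scd1*, the desaturase of lipid synthesis, had ratios of 1.62, 15.9 and 28.8 (log2 fold change 3.56 ± 0.73 SE, adjusted p = 0.041). *Dgat2*, which forms triglyceride, *Acacb*, an acetyl-CoA carboxylase, *Pcx*, pyruvate carboxylase, *Ces1d*, a lipase of fat, and *Cd36*, a fatty acid receptor, had log2 fold changes of 2.98, 2.45, 2.65, 2.72 and 2.29. Their adjusted p-values lay between 0.011 and 0.047. Within WT1101, *Ces1d* was the 1 gene of these 6 past 2-fold, at 2.18 [1.45 to 3.2]. The WT1101 intervals held 1 for *Dgat2* (1.09 [0.751 to 1.55]), *Acacb* (1.31 [0.784 to 2.09]), *Pcx* (1.16 [0.728 to 1.77]) and *Cd36* (1.11 [0.857 to 1.42]). *Lipe*, the hormone-sensitive lipase, and *Abcd2*, a peroxisomal transporter, lay on opposite sides in WT1101 and the KO sections, with ratios of 0.461, 6.81 and 8.93 and 0.48, 4.62 and 5.06, and neither passed (adjusted p = 0.11 and 0.13).

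The fat was not even along the edge. In the sector of low x and high y the white adipocyte ratio reached 26.3 in KO1134 and 24.3 in KO1308, and the brown adipocyte ratio 54.4 and 109. Elsewhere white adipocyte ratios went down to 0.691 in KO1134 and 2.19 in KO1308. When bins were limited to the thymus area, the white adipocyte ratios were 1.06, 2.7 and 4.09 and the brown adipocyte ratios 1.41, 2.73 and 2.94 in WT1101, KO1134 and KO1308. In the largest group of bins of KO1308 alone they were 2.89 and 4.4. With the edge drawn at the outermost deposited spots, KO1308 gave 5.0 and 3.31. In each of these 3 alternatives the KO ratios given stayed above 1, and the size of the KO1308 value depended on which bins counted as its rim.

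Muscle transcripts were higher than inside in parts of both KO rims, and blood transcripts were so in part of the KO1134 rim. The striated muscle list gave ratios of 0.222, 6.04 and 4.37, but no gene of the 4 tested passed by edgeR or DESeq2 (2 were higher at an unadjusted p under 0.05). The members differed between sections. In KO1134 the skeletal muscle genes *Acta1* and *Ckm* stood at 67.6 and 55.3 CPM in the rim and 1.45 and 2.35 CPM inside. In KO1308 the heart genes *Myh6* and *Actc1* stood at 38.8 and 25.5 CPM in the rim and 0.859 and 1.15 CPM inside. The signal was concentrated in 1 sector of each section, with list ratios of 20.4 in KO1134 (high x, high y) and 16.8 in KO1308 (low x, low y). Erythroid genes had ratios of 0.746, 4.58 and 2.4 and none of 4 passed by edgeR, although 2 were higher at an unadjusted p under 0.05 and DESeq2 called 1. The KO1308 ratio rested on 50 rim and 47 inner UMIs. Its rim level of 16.2 CPM lay below both zones of WT1101, at 66.4 CPM in the rim and 89 CPM inside. In KO1134 the sectors of the erythroid list ran from 0.243 to 28.9, and within the thymus area the list ratio was 1.11. The nerve list had few UMIs and ratios of 0.558, 2.15 and 1.38. For endothelium of blood vessels the ratios were 0.601, 0.80 and 1.13, and *Kdr*, a receptor for vascular endothelial growth factor, passed 2-fold in WT1101 and KO1308 (2.14 [1.36 to 3.29] and 2.06 [1.49 to 2.86]) and did not pass across sections (adjusted p = 0.082). The lists of mural cells (0.44, 0.922 and 0.834), mast cells (1.05, 1.32 and 0.676) and granulocytes (0.551, 0.603 and 0.28) had no called gene by edgeR. DESeq2 called 1 mural cell gene, 1 blood endothelial gene and 1 granulocyte gene lower. At an unadjusted p under 0.05, 1 mural cell gene was higher and 1 lower, 1 mast cell gene was higher, 2 granulocyte genes were lower, and of the blood endothelial genes 1 was higher and 3 were lower.

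**Figure D4:**
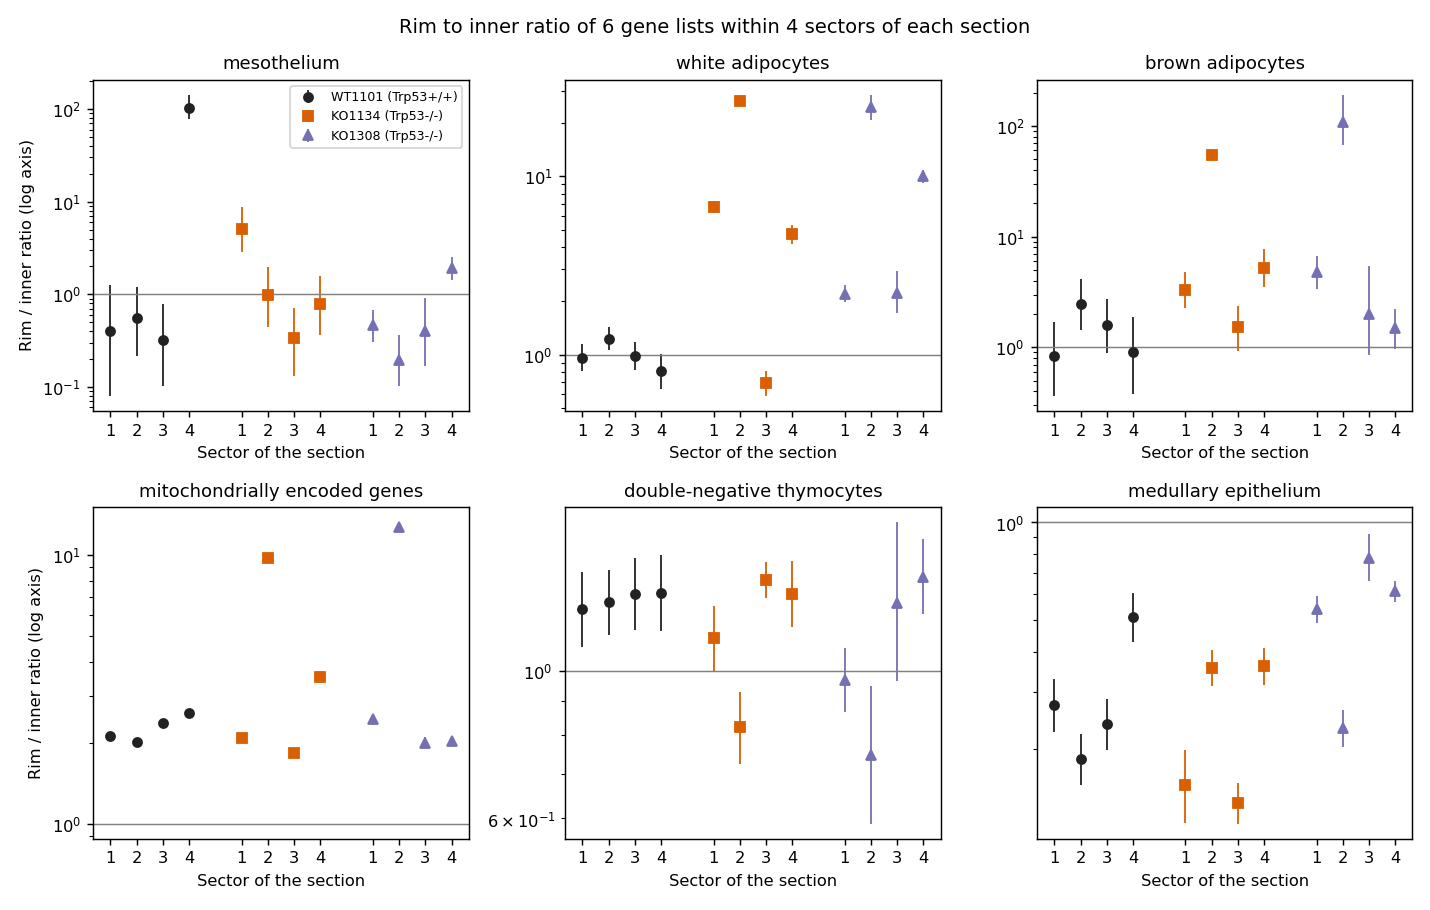
Ratio of rim to inner level in each of 4 sectors of each section for selected lists, on a log axis, each point being 1 sector (1 is low x and low y, 2 low x and high y, 3 high x and low y, and 4 high x and high y) with its 95% interval. Mitochondrially encoded genes lie above 1 and medullary epithelium below 1 in all sectors, whereas mesothelium in WT1101 and fat in the KO sections are highest in a single sector.

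The mesothelium of WT1101 was also uneven along the edge. In the sector of high x and high y its genes stood at 593 CPM in the rim and 5.71 CPM inside, a ratio of 104. In the other sectors the ratio lay between 0.325 and 0.551. Fibroblast genes were higher in the rim in all 4 sectors, from 1.14 to 6.25. The ribosomal protein genes of WT1101 were even, from 1.39 to 1.6.

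Mitochondrially encoded genes, which encode subunits of the respiratory chain and the RNAs to translate them, were higher in the rim of every section. They made up 1.45%, 5.13% and 4.48% of rim UMIs and 0.652%, 1.03% and 0.88% of inner UMIs in WT1101, KO1134 and KO1308. The ratios were 2.22 [2.2 to 2.24], 4.96 [4.93 to 4.99] and 5.08 [5.04 to 5.13]. Of 33 genes tested 30 rose and none fell, with log2 fold changes from 1.54 to 2.46 and a median of 1.96. The 3 that did not pass were the transfer RNA genes *mt-Th*, *mt-Tl2* and *mt-Tv*. This share was capped at 30% in the choice of bins, which limits how high it can be in any bin. The rim was higher in all sectors, from 2.02 to 2.59 in WT1101, from 1.83 to 9.76 in KO1134 and from 2.0 to 12.8 in KO1308.

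*mt-Nd3*, a subunit of complex I of the respiratory chain, stood at 133, 706 and 725 CPM in the rim and 34.1, 125 and 123 CPM in the inner tissue (log2 fold change 2.46 ± 0.16 SE, adjusted p = 0.0019). Every rim level was above every inner level. The predicted gene *Gm28438* rose by a similar amount (2.41 on the log2 scale), and 99.1% of its 25-base words occur in *mt-Nd3*, so their reads cannot be told apart. *Gm13339*, which shares 37.9% of its words with *mt-Nd2*, behaved likewise (2.43 against 2.34). The subunits of complex IV, *mt-Co1*, *mt-Co2* and *mt-Co3*, had log2 fold changes of 1.91, 2.13 and 2.08, and *mt-Cytb* of complex III 1.95. With bins limited to the thymus area the ratios of the list were 2.17, 1.93 and 2.04, close to one another, and 26 of 30 genes tested passed. The summed adipocyte lists were raised along with these genes in the KO sections, against list ratios of 1.04 and 1.45 in WT1101, and their part in these ratios was not tested. Over the 4 sectors of KO1134 white adipocyte ratios ran from 0.691 to 26.3 and mitochondrial ratios from 1.83 to 9.76. Brown adipocyte genes were above 1 in all 4 sectors of KO1134, from 1.52 to 54.4.

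Some genes that passed 2-fold in all 3 sections belong to none of the lists. *Cfd*, complement factor D or adipsin, which adipocytes secrete (ENSMUSG00000061780, chr10:79890853-79892655, plus strand), stood at 31, 1360.4 and 1898 CPM in the rim and 2.19, 66.8 and 34.8 CPM in the inner tissue (log2 fold change 4.82 ± 0.37 SE, adjusted p = 0.0023). It was at least 14.1-fold above the inner tissue in each section, including WT1101, where *Adipoq* stood at 2.23 CPM in the rim. *Retnla*, a resistin-like protein of fat and alternatively activated macrophages, stood at 63.1, 263 and 36.2 CPM in the rim and 4.42, 37.9 and 6.44 CPM in the inner tissue (log2 fold change 3.19 ± 0.25 SE, adjusted p = 0.0023). *Cav1*, caveolin of endothelium, adipocytes and mesothelium, stood at 13.4, 45.1 and 49.7 CPM in the rim and 3.64, 7.72 and 8.16 CPM in the inner tissue, with ratios of 3.67, 5.84 and 6.1 (log2 fold change 2.47 ± 0.19 SE, adjusted p = 0.0023). The antisense gene *Gm15581* spans *Cav1*, so reads of the pair cannot be told apart. For *Cav1* every rim level lay above every inner level. For *Cfd* the WT1101 rim lay below the inner level of both KO sections, and for *Retnla* the lowest rim level (36.2 CPM in KO1308) lay just below the highest inner level (37.9 CPM in KO1134).

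Profiles by distance showed how sharp each border was. In WT1101 the fibroblast list fell from 744 CPM in the outermost 27 µm to 318 CPM at 54 to 81 µm and 148 CPM at 135 to 270 µm. Mesothelium did not peak at the edge, with 64.4 CPM in the outermost bins, 129.9 at 27 to 54 µm, 156 at 54 to 81 µm and 37.8 at 81 to 135 µm. *Pi16* fell from 78.9 to 45.1 and 13.8 CPM over the first 3 steps, whereas *Upk3b* rose from 15.6 to 36.6 and 44.6 CPM and was 1.53 CPM at 135 to 270 µm. *Pi16* was at 2.71 CPM there, so both genes were concentrated near the outer edge.

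The thymocyte genes of WT1101 declined more slowly. *Il2ra* stood at 58.1, 48.8 and 55.8 CPM in the 3 steps of the rim, 41.4 CPM at 81 to 135 µm, 34.1 CPM at 135 to 270 µm and 27.2 CPM beyond 540 µm. *Ptcra* went from 38.4 CPM at the edge to 22.2 and 16.5 CPM in the steps past the rim and 11.3 CPM beyond 540 µm. *Ackr4* went from 22.8 to 14, 11.2 and 4.87 CPM over the first 4 steps. The cell cycle list was highest at 54 to 81 µm, with 3550.1 CPM, against 3135 CPM at the edge and 2416 CPM beyond 540 µm. B cell genes rose inward from 20.8 to 77.8 CPM and medullary epithelium from 135 to 502 CPM.

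In the KO sections the fat reached further in. Brown adipocyte genes stood at 1359 CPM at the edge of KO1134, 919 CPM at 81 to 135 µm, 349 CPM at 135 to 270 µm and 15.6 CPM beyond 540 µm. In KO1308 the same steps gave 1070.3, 1313, 582 and 22.8 CPM. The mitochondrial genes went from 57185 to 8975 CPM in KO1134, from 43222 to 8689 CPM in KO1308 and from 18138 to 6136 CPM in WT1101. In WT1101 they fell at every step inward.

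**Figure D5:**
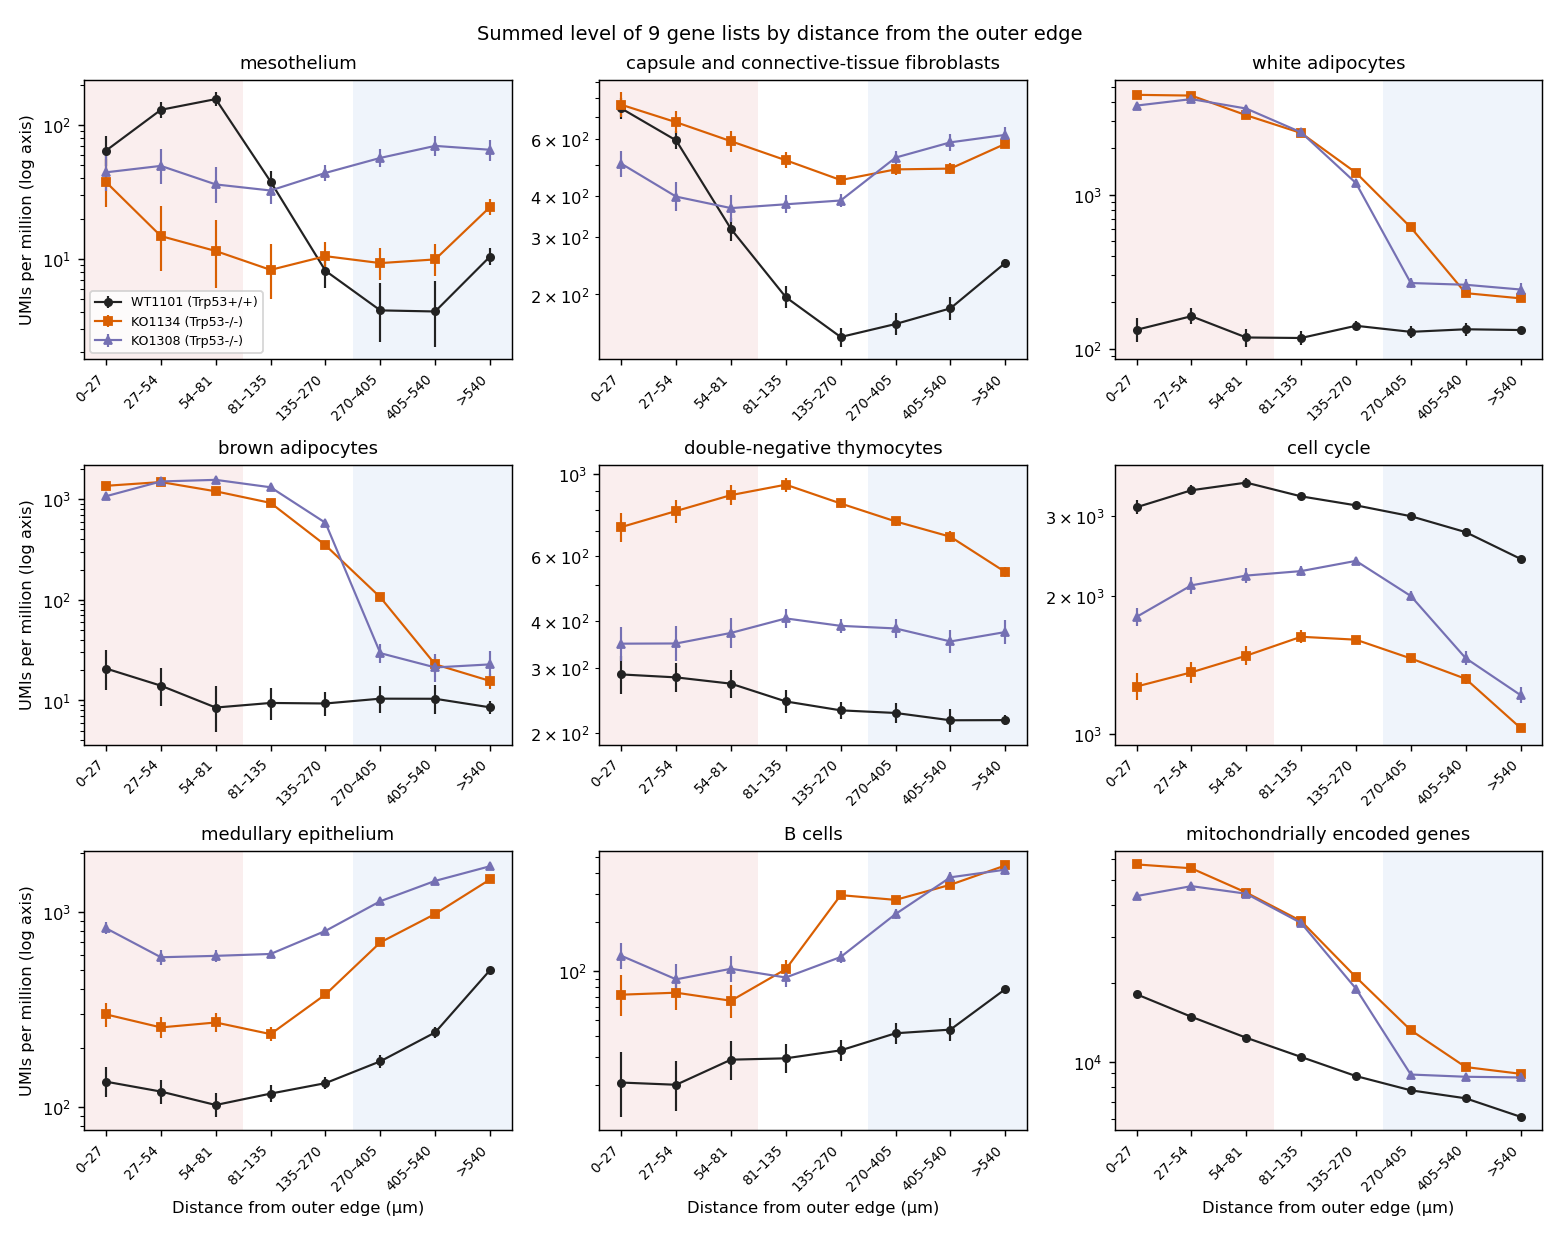
Level of selected lists against distance from the outer edge, in CPM on a log axis, 1 line per section with exact 95% intervals for counting error. Adipocyte genes fall inward by over 10-fold in the KO lines, while white adipocyte genes show no such fall in WT1101, mitochondrially encoded genes fall inward in all lines, and medullary epithelium is highest furthest inward.

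Ribosomal protein genes lay on opposite sides in WT1101 and the KO sections, which was not tested. They made up 14.6% of rim and 9.59% of inner UMIs in WT1101, 14% and 16% in KO1134, and 9.52% and 12.2% in KO1308. Of the 91 genes in the list 87 had a ratio above 1 in WT1101, against 16 in KO1134 and 3 in KO1308. Over all genes with at least 100 UMIs, the shares above 1 were 31.6% in WT1101, 38% in KO1134 and 39.9% in KO1308. Of 88 ribosomal protein genes tested 0 passed in either direction by edgeR or DESeq2 or at an unadjusted p under 0.05 (median log2 fold change 0.12). With the thymus area alone the ratios were 1.55, 0.977 and 0.95, and in the largest group of bins of KO1308 the ratio was 1.0. The list was above 1 in 2 of 4 sectors of each KO section, from 0.605 to 1.22 in KO1134 and from 0.659 to 1.1 in KO1308, so the side did not hold along the whole KO rim. The nuclear RNAs *Malat1* and *Neat1* had a joint ratio of 0.489 [0.463 to 0.515] in WT1101, 0.926 [0.87 to 0.985] in KO1134 and 0.894 [0.843 to 0.949] in KO1308. Immediate early genes, which respond to stimulation and to handling of tissue, had 0.49 [0.454 to 0.528], 0.917 [0.842 to 0.996] and 0.992 [0.916 to 1.07]. *Egr1* was the member with the widest gap in WT1101, at 65.5 CPM in the rim and 185 CPM inside. The median bin depth of the rim was above that of the inner tissue in WT1101 and below it in both KO sections, and its part in these ratios was not tested.

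Single genes with opposite sides included *Serping1*, the inhibitor of complement C1, at 38.1, 29.8 and 22.6 CPM in the rim and 13.9, 72.3 and 57 CPM in the inner tissue. Its ratio was 2.74 [2.27 to 3.29] in WT1101, 0.412 [0.326 to 0.515] in KO1134 and 0.397 [0.303 to 0.513] in KO1308. *Gpx3*, a secreted glutathione peroxidase that fat makes, was at 14.3, 272 and 358 CPM in the rim and 36.2, 132 and 124 CPM in the inner tissue, with ratios of 0.395, 2.05 and 2.89. Both were chosen as genes past 2-fold in opposite directions between WT1101 and the KO sections, so these ratios are a description.

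*Trp53* itself stood at 70.4, 10.5 and 22.9 CPM in the rim and 80.9, 18.7 and 28.5 CPM in the inner tissue. The KO sections were below the WT section in both zones. Its ratio was 0.87 [0.771 to 0.98] in WT1101, where the median gene ratio was 0.881. It was 0.564 [0.373 to 0.824] in KO1134, from 29 rim UMIs, and 0.805 [0.605 to 1.06] in KO1308, where the interval held 1. *Trp53* did not pass across sections (log2 fold change -0.27 ± 0.15 SE, adjusted p = 0.37). The sources used here do not say which part of the gene was deleted, so the remaining UMIs do not check the labels. *Cdkn2a*, the tumour suppressor locus that encodes ARF and p16, stood at 0.223, 52 and 59.1 CPM in the rim and 1.38, 59 and 46.5 CPM in the inner tissue. It was near absent in WT1101 and present in both zones of the KO sections, with no call between zones (adjusted p = 0.91). The p53 target genes *Cdkn1a* and *Mdm2* had ratios of 0.691, 0.639 and 0.87 and 0.85, 0.891 and 1.18 and did not pass (adjusted p = 0.43 and 0.85).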

How the data were processed

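Spatial transcriptomes of 3 thymus sections were used. The deposited matrices hold raw whole UMI counts of each gene in each barcoded spot, which the authors made with BSTMatrix, using STAR for alignment. The build per the labels is GRCm38. The deposited counts sum to 41581477 UMIs in WT1101, 31237062 in KO1134 and 21089885 in KO1308, and each holds 54838 gene IDs, of which 99.8% were found in GENCODE M21, which gave positions and transcripts. Spot barcodes are position codes that the slides share (345766, 903622 and 244006 between pairs of sections), so they do not show shared libraries. Folds, which the authors removed, were kept, and no clustering or doublet calling was done.

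UMIs were summed in bins, zones were set by Euclidean distance to the nearest bin outside the tissue, and counts were summed per zone and section. Zone sums were tested with edgeR 4.0.16 (R 4.3.3) with TMM scaling, its filter on low counts and Benjamini-Hochberg adjustment. The p-values measure the spread between 3 sections of 3 mice. DESeq2 1.42.0 was an alternative, beside other scalings, filters, zone widths, bin widths, masks and left-out sections. Zone sums, exact Poisson intervals of CPM and figures were made with Python 3.11.15, numpy 2.4.6, scipy 1.17.1, pandas 2.3.3 and matplotlib 3.10.9, and the scripts were tested on simulated data. Named are members of 27 gene lists and the 15 called genes with the largest fold change at each end. Those called genes had a ratio on the same side of 1 and at least 100 UMIs in every section. Also named are the 15 largest and 15 smallest ratios in WT1101, genes past 2-fold in opposite directions between WT1101 and both KO sections, and *Trp53*, *Cdkn2a*, *Cdkn1a* and *Mdm2*. The zones and lists were chosen with earlier results of these data known. A few single genes are not reported here.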

Additional observations from a re-analysis of the deposited data

Results flagged for a closer look

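Several groups of genes had the WT section on one side of 1 and both KO sections on the other. The differences between genotypes were not tested, since there was 1 WT section. In WT1101 the rim to inner ratio was 0.91 for double-positive thymocyte genes, 2.02 for lymphatic endothelium, 0.746 for erythroid genes, 0.222 for striated muscle genes, 1.12 for niche ligands and 1.52 for ribosomal protein genes. The value for lymphatic endothelium rested on 81 rim UMIs, and the erythroid ratio of KO1308 on 50 rim and 47 inner UMIs. In KO1134 the double-positive ratio was 1.05, with 6 of 12 genes above 1 and 3 past 2-fold lower. Over all genes with at least 100 UMIs in WT1101 the median ratio was 0.881, and 31.6% were above 1. The single genes *Lipe* and *Abcd2*, at 0.461 and 0.48, *Serping1*, at 2.74, and *Gpx3*, at 0.395, passed 2-fold one way in WT1101 and the other way in both KO sections.

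Bins outside the kept tissue, which the main comparison did not use, also carried adipocyte transcripts. The white and brown adipocyte genes together stood at 4125 CPM in such bins of KO1134 and 3124 CPM in those of KO1308, against 392 CPM in WT1101. These bins held a median of 197, 201 and 231.5 UMIs in the same order.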

How the results depend on the processing

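The counts of called genes moved with most choices, and the causes were not tested. Higher genes, 306 as reported, became 783 without the filter on low counts, 546 with bins of 50 µm, 79 with a minimum of 500 genes per bin, 197 within the thymus area and 520 with the edge at the outermost deposited spots, the last chosen after seeing the data. Lower genes, 417 as reported, became 751 when scaled by total UMIs, 1362 without the filter, 258 with a rim of 2 bins, 690 with a rim of 5 bins, 211 with the inner tissue starting past 3 bins, 674 with distance counted in steps that include diagonals, 94 with a minimum of 500 genes and 774 with the edge at the outermost deposited spots. Leaving out 1 section gave from 3 to 1347 higher and from 1 to 1.3e+03 (rounded) lower genes, where the lowest counts came without KO1134 and the highest without WT1101. DESeq2 gave 408 and 486.

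Without the section as a block 0 genes were called higher and 0 lower, so the calls rest on pairing the zones of a section. The zones of a section come from the same mouse, so the pairing follows from the design.

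Among genes at least 2-fold higher in WT1101, 122 became 75 with a rim of 5 bins and 189 with bins of 50 µm. In KO1134 398 higher genes became 124 and 866 lower genes became 524 within the thymus area. In KO1308 272 higher genes became 64 within the thymus area, and 372 lower genes became 179 with the inner tissue past 3 bins, 907 with bins of 50 µm, 104 with a minimum of 500 genes, 132 within the thymus area and 1290 with the edge at the outermost deposited spots.

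Of 891 rim to inner ratios of the lists recomputed under the alternatives, 515 stayed within their counting interval. In all, 38 lay on the other side of 1, and 36 of these started from a ratio within 1.5-fold or with an interval that held 1. The other 2 were B cell genes in KO1308 with bins of 50 µm, at 1.07, and lymphatic endothelium in KO1134 with a minimum of 500 genes, at 1.21. For 93 called and 6 other genes whose log2 fold changes are given, 1325 recomputed values kept direction and call, 323 lost the call, 24 gained it and 2 changed sign. These were *Cxcl13* with bins of 50 µm, at 1.03, and *Msln*, which ran from -0.77 without WT1101 to 2.06 without KO1308. Levels near or under 3 UMIs in a zone limit the ratios of single genes, and a few UMIs decide those of mesothelium in the KO sections and of nerve.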

Other observations

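Further genes of the inner tissue were low at the rim of all sections. *Fcgbp*, a mucus protein of epithelia, stood at 17.6, 70.2 and 218 CPM in the rim and 271, 414 and 585 CPM in the inner tissue in WT1101, KO1134 and KO1308 (log2 fold change -2.45 ± 0.40 SE, adjusted p = 0.021). *Ccl19*, a ligand of CCR7, stood at 0.223, 6.54 and 10.7 CPM in the rim and 8.25, 42.5 and 31.1 CPM in the inner tissue (log2 fold change -2.28 ± 0.37 SE, adjusted p = 0.022). *Siglecg*, an inhibitory receptor of B cells, had no UMI in the WT1101 rim, which makes it at least 5.67-fold lower there than inside (log2 fold change -2.60 ± 0.45 SE, adjusted p = 0.026). *Clca3a2*, a chloride channel accessory gene, had ratios of 0.133, 0.123 and 0.319 (log2 fold change -2.16 ± 0.32 SE, adjusted p = 0.015). The predicted genes *Gm13307* and *Gm3892* had log2 fold changes of -2.55 and -2.32. *Gm13307* shares 10% of its 25-base words with *Ccl27a*, so its reads are uncertain.

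Some genes low at the rim of WT1101 were less so in the KO sections, which was not tested. *Lrg1*, a secreted glycoprotein, had 1 UMI in that rim against 10.4 CPM inside, and ratios of 1.15 [0.881 to 1.47] in KO1134 and 1.21 [0.903 to 1.6] in KO1308. *Fgf21*, a metabolic hormone, had 1 UMI there too, and ratios of 0.622 and 0.814 in the KO sections. *Cyp2a5*, a cytochrome P450, and *Clca3a1* had no UMI in the rim of WT1101 and ratios of 0.432 and 0.434, and of 0.384 and 0.583, in KO1134 and KO1308. None of these 4 genes passed across sections (adjusted p from 0.11 to 0.76).

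At the other end, *Cox7a1*, a subunit of complex IV made in brown fat and muscle, had ratios of 1.34, 22.4 and 34.2 (log2 fold change 3.73 ± 0.76 SE, adjusted p = 0.04). *Gm15581* had ratios of 3.82, 5.31 and 6.09 (log2 fold change 2.43 ± 0.17 SE, adjusted p = 0.0019). It spans *Cav1* on the opposite strand (chr6:17206823-17385604, minus strand), so its reads cannot be told apart from those of *Cav1*. *Gpm6a*, a membrane glycoprotein of neurons and mesothelium, had ratios of 6.56, 1.74 and 1.28 and did not pass (adjusted p = 0.11). The mitochondrial transfer RNA genes *mt-Tc*, *mt-Tn* and *mt-Ta* were the mitochondrial genes with the largest ratios in WT1101 among those with at least 100 UMIs, at 6.09, 5.64 and 5.36.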
